A study of Canis lupus familiaris with 48 samples.

Results

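The 98 genes described here were chosen by their group means in 48 RNA-seq libraries. The cells were MDCK I, a long-established epithelial line from dog kidney. A gene was taken when its mean after urea was at least 2 CPM (read counts divided by the library total in megareads) and at least 1.8 times the control mean, while its means after NaCl and after raffinose both lay between 0.67 and 1.5 times control and within 0.625 to 1.6 times each other. Each mean had 0.1 CPM added before the ratios were taken, and genes of the mitochondrial genome were left out. Of the 32704 annotated genes, 25518 were detected with at least 1 read, and 98 met these conditions. Their levels in the 4 groups are therefore the values that chose them. Counts of genes called in comparisons of these groups are printed below only as a description of the selection, beside the share of all tested genes called, and nothing is read from them.

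The control cells stood in regular medium of 300 mOsm. The other 3 groups spent their last 24 h, of 144 h in culture, in the same medium raised to 500 mOsm with 200 mOsm of NaCl, raffinose or urea. Each group has 12 libraries, 1 for each of 12 passages of the line between passage 1 and passage 19, and the same passage numbers occur in every group. All replicates thus come from 1 line. A p-value of the main group comparisons reflects the spread among libraries of that line, from passage differences and library noise together. The passage fits took the 4 libraries of a passage as independent unless stated. Per the labels the libraries were made from polyadenylated RNA, with a kit that does not mark the strand.

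Urea crosses most cell membranes, so raising it outside a cell raises it inside as well and draws little water out. Sodium chloride and the trisaccharide raffinose stay largely outside, draw water from the cell and concentrate its contents, the state called hypertonicity. The inner medulla of the mammalian kidney holds high concentrations of both salt and urea, and its epithelial cells live with both at once.

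Library totals ran from 3.92 to 16.16 megareads, with group medians of 10.24 for control, 11.92 for NaCl, 10.12 for raffinose and 10.3 for urea. The shallowest library was urea passage 8. The genes carry Ensembl identifiers that could not be paired with symbols, so they are named by identifier and by position on the dog build CanFam3.1, no gene function is given, and the kidney epithelial identity of the cells was not checked against marker genes. In these bulk samples, more cells expressing a gene and more RNA per cell cannot be told apart.

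Among the 11118 genes with at least 2 CPM after urea, 318 reached 1.8 times control, and the 98 genes were 30.8% of them. A further 105 of the 318 were also above 1.5 times control after both NaCl and raffinose, 72 were under 0.67 times control after both, and 43 fell elsewhere. The 98 genes had a median ratio of urea to control of 2.11, against 2.25 for the 105 and 2.18 for the 72. Ratios of 3 or more occurred in 9 of the 98 genes, 26 of the 105, 8 of the 72 and 7 of the 43. The highest ratio was 4.93 among the 98 and 21.9 among the 105. These sets are defined by the same means, so the figures describe the selection.

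**Figure D1:**
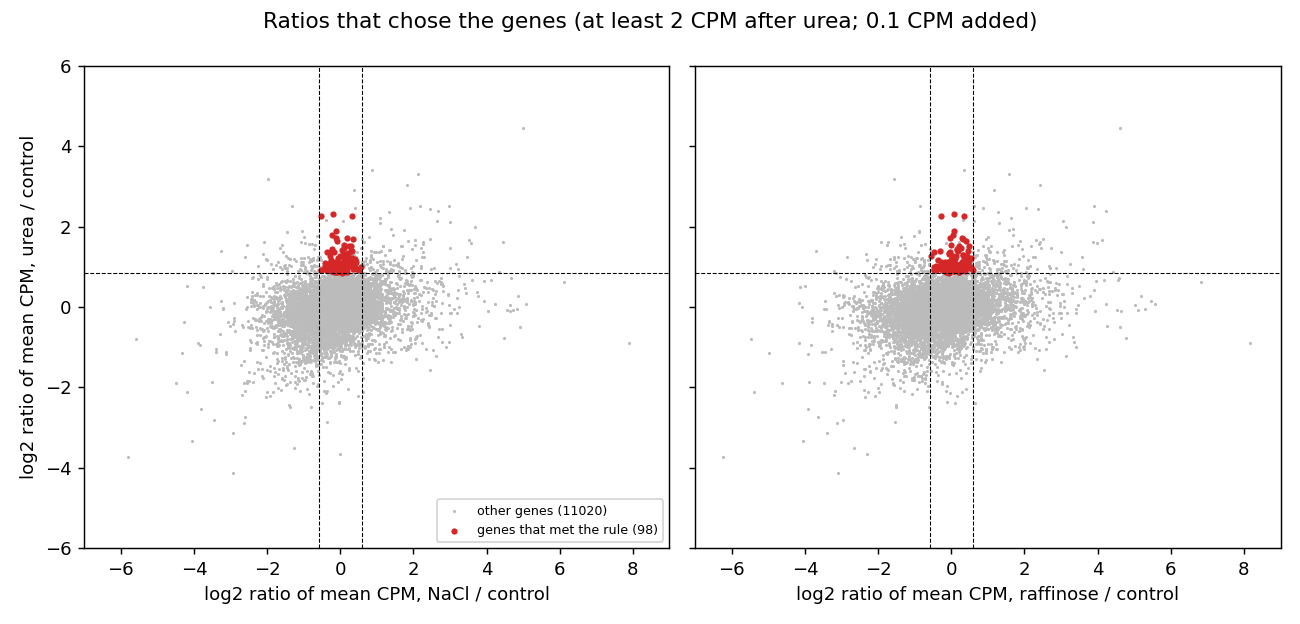
Each point is a gene with at least 2 CPM after urea, and the axes are log2 ratios of group mean CPM (12 libraries each, 0.1 CPM added) for urea against control (vertical) and for NaCl or raffinose against control (horizontal). Dashed lines mark 1.8 times control on the vertical axis and 0.67 and 1.5 times control on the horizontal axis, and the 98 chosen genes, in red, lie in the window they bound, with ratios of urea to control up to 4.93.

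As a body, the 98 genes took up about the same part of the libraries in 3 of the groups and more in the urea group. Their summed level was 4643 ± 382 CPM in control (SD, n = 12), 4782 ± 404 after NaCl and 4712 ± 290 after raffinose. After urea it was 10117 ± 522 CPM, and the lowest urea library, at 9437, lay above the highest library of any other group, at 5821. The 4 most abundant genes held 38.4% of the urea sum. Per gene, the median level went from 12.47 CPM in control to 28.8 CPM after urea. The size of the rise was moderate in most of them: 65 of 98 had a ratio of at least 2, 22 at least 2.5, and 3 at least 4.

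Levels after urea covered a wide range. Of the 98 genes, 22 had a urea mean of at least 100 CPM and 14 were under 5 CPM. Scaled also by exon length, the urea means ran from 0.576 to 314.4 reads per kb per megaread, with a median of 13.6. The same median was 5.85 in control, 5.63 after NaCl and 6.02 after raffinose.

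**Figure D2:**
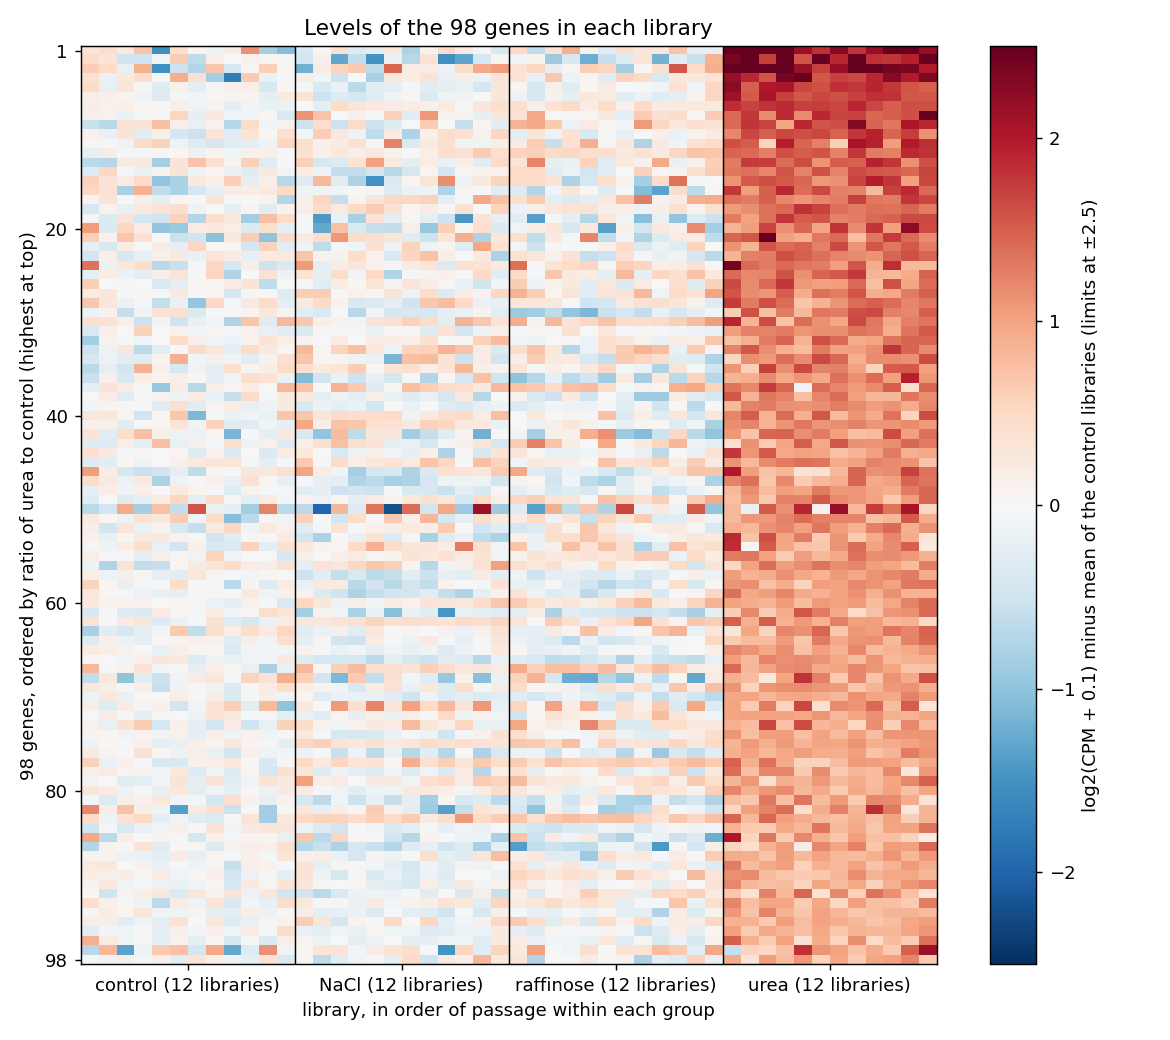
Each row is 1 of the 98 genes and each column 1 of the 48 libraries, and colour gives log2(CPM + 0.1) minus the gene's mean over the 12 control libraries, cut at ±2.5. The urea block is red in nearly all rows, while the NaCl and raffinose blocks hold both colours in weak shades and a few rows vary from passage to passage in all 4 groups.

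The highest ratio belonged to ENSCAFG00000000475 (chromosome 12, 838393 to 839623, minus strand, 2 exons). Its lowest, median and highest libraries were at 0.329, 1.34 and 2.65 CPM in control, at 0.625, 1.13 and 1.63 after NaCl and at 0.705, 1.41 and 2.21 after raffinose. After urea they were at 4.24, 6.50 and 10.7 CPM, so every urea library lay above every library of the other groups. The edgeR log2 fold change against control was 2.47 ± 0.20 (SE).

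ENSCAFG00000004730 (chromosome 1, 111486389 to 111491034, plus strand, 4 exons) came next, at a higher level. Control libraries ran from 6.16 to 14.9 CPM with a median of 9.83, and urea libraries from 28.6 to 88.9 with a median of 43.9. After NaCl the median was 6.62 and after raffinose 7.47, and no library of these groups passed 17.7. The log2 fold change for urea was 2.36 ± 0.21. Of the 98 genes it had the lowest ratio of NaCl to control, 0.691.

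ENSCAFG00000016641 (chromosome 5, 32501424 to 32503129, plus strand, 7 exons) had a control median of 0.686 CPM and a highest control library of 1.32. Its medians were 0.866 after NaCl and 0.935 after raffinose, and its urea libraries ran from 2.39 to 4.92 with a median of 4.05. The urea group did not overlap any other group, with a log2 fold change of 2.41 ± 0.23. Its span overlaps another tested gene of the same strand.

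A second chromosome 1 gene, ENSCAFG00000004383 (109795998 to 109814429, plus strand, 6 exons), had medians of 1.12 CPM in control, 1.09 after NaCl, 1.27 after raffinose and 4.22 CPM after urea. The lowest urea library, 3.19, lay above the highest control library, 2.03. Its log2 fold change was 2.06 ± 0.18.

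The fifth and sixth ratios belonged to a pair of genes on opposite strands of chromosome 5 whose annotated spans overlap. ENSCAFG00000019352 (56200435 to 56207632, minus strand) had medians of 10.9 CPM in control, 9.18 after NaCl, 10.9 after raffinose and 37.1 CPM after urea, with a log2 fold change of 1.87 ± 0.10. ENSCAFG00000019355 (56194596 to 56201811, plus strand) had medians of 15.5, 14.0, 13.6 and 48.4 CPM in the same order, and 1.81 ± 0.10. The lowest urea library was at 30.5 and 43.5 CPM respectively, above all libraries of the other groups for both genes. Over the urea libraries they correlated with r = 0.87 and rho = 0.73 (permutation adjusted p = 0.0041 and 0.026), and r was 0.68 without the 2 farthest libraries. Reads were counted without strand, so reads from the shared stretch cannot be told apart between them. With the partner included, the span of ENSCAFG00000019352 overlaps 2 tested genes and that of ENSCAFG00000019355 overlaps 3.

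**Figure D3:**
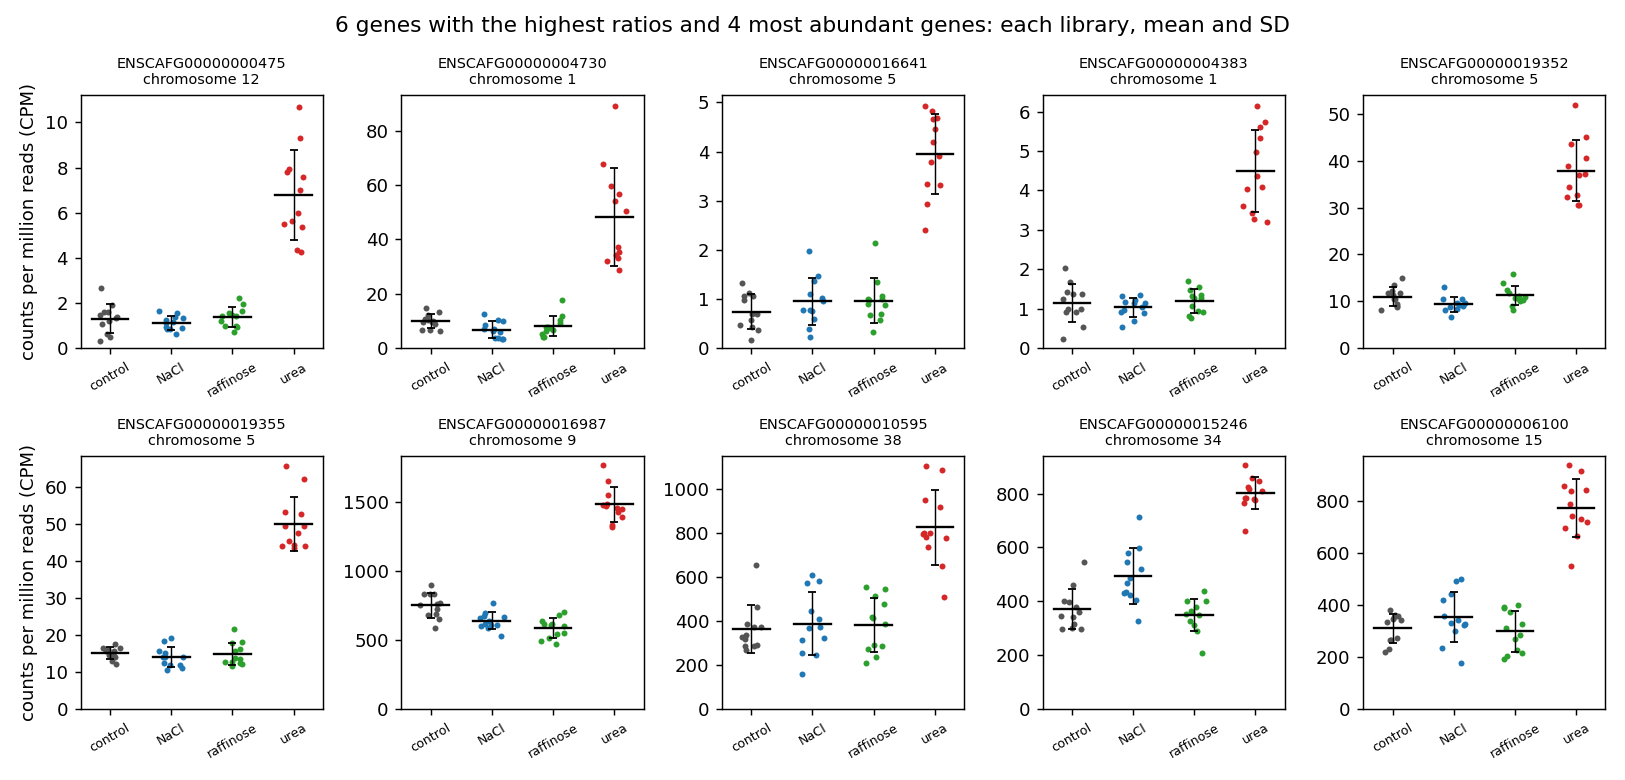
Each panel shows 1 gene, with CPM on a linear axis from 0, a point for each of the 48 libraries, and the mean and SD of each group of 12 as a bar with whiskers. In the 6 genes of highest ratio the urea points clear all others, whereas ENSCAFG00000010595 overlaps with every other group and ENSCAFG00000015246 with NaCl.

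The 4 most abundant genes had lower ratios than these genes of highest ratio, from 1.98 to 2.49. ENSCAFG00000016987 (chromosome 9, 26065807 to 26098534, plus strand, 26 exons) had the highest count level, with control libraries from 585.3 to 896.0 CPM and urea libraries from 1322 to 1773. Its mean was 751 ± 90.2 CPM in control, 638 ± 61.4 after NaCl, 586 ± 71.3 after raffinose and 1483 ± 128 CPM after urea (SD, n = 12). The log2 fold change for urea was 1.06 ± 0.07. Its span overlaps 3 annotated genes of the opposite strand, of which 1 was tested.

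ENSCAFG00000015246 (chromosome 34, 35917730 to 36080428, minus strand, 33 exons) was the only 1 of the 98 genes called higher after NaCl than after raffinose. Its medians were 353.4 CPM in control, 478.6 after NaCl, 356.3 after raffinose and 796.7 CPM after urea. The highest NaCl library, 714.3, lay above the lowest urea library, 662.7, and neither control nor raffinose libraries reached that level. The log2 fold change was 1.19 ± 0.10 for urea and 0.60 ± 0.10 for NaCl.

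ENSCAFG00000006100 (chromosome 15, 30322404 to 30326508, minus strand, 3 exons) had the highest level per length of the 98 genes, at 314.4 reads per kb per megaread after urea and 126.0 in control. Its libraries ran from 217.9 to 380.4 CPM in control and from 550.2 to 935.0 after urea, with medians of 337.4 and 764.4. NaCl libraries ran from 176.0 to 498.6 and raffinose libraries from 190.9 to 398.4, so the urea group did not overlap any other.

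ENSCAFG00000010595 (chromosome 38, 6198192 to 6204719, minus strand, 8 exons) was the only 1 of these abundant genes whose urea group overlapped with every other group. Control libraries ran from 267.2 to 655.6 CPM with a median of 331.3, and urea libraries from 507.9 to 1107 with a median of 800.0. NaCl libraries reached 610.1 and raffinose libraries 554.9, so the urea group overlapped with all 3. It was still higher after urea than in control at every 1 of the 12 passages, with a log2 fold change of 1.26 ± 0.17.

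Across the 98 genes, the urea libraries all lay above all control libraries in 70 (71.4%). Of all 12654 genes tested, 3.45% did so. The urea libraries lay above all NaCl libraries in 59 genes and above all raffinose libraries in 58, where 13.5% and 16.9% of tested genes did. Set side by side by passage, the urea library was higher than the control library of the same passage in all 12 pairs for 94 genes, against 11.2% of tested genes. The exceptions were ENSCAFG00000003981 (chromosome 1), ENSCAFG00000028465 (chromosome 6) and ENSCAFG00000007224 (chromosome 28), higher in 11 pairs, and ENSCAFG00000011263 (chromosome 32), higher in 10. ENSCAFG00000003981 and ENSCAFG00000028465 were named after their values were seen, and the urea means of the 4 ran from 2.01 to 5.75 CPM. The rule used these group means, so the counts describe how evenly the chosen difference ran through the libraries.

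All 98 genes passed the filter on low counts. The selection fixed their direction against control and, in large part, against the other solutes, so the calls of this paragraph test nothing. The quasi-likelihood test of edgeR with Benjamini-Hochberg adjustment over the 12654 tested genes called all of them higher after urea than in control, as it did for 27.4% of tested genes. The log2 fold changes ran from 0.91 to 2.47 with a median of 1.16, against 0.02 over all tested genes. The test called 96 higher after urea than after NaCl and 95 higher than after raffinose, where it called 36.9% and 38.4% of tested genes. Those not called against NaCl were ENSCAFG00000023107 (chromosome 26) and ENSCAFG00000007406 (chromosome 16). Against raffinose they were ENSCAFG00000023107, ENSCAFG00000019602 (chromosome 5) and ENSCAFG00000011263.

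The window for NaCl and raffinose is a limit on the size of the ratios, and some of the genes were called against control in those groups. In either direction 37 of 98 were called after NaCl (37.8%) and 51 after raffinose, where 70.7% and 74.9% of tested genes were. After raffinose 49 of 98 were called higher and 2 lower, and 47 were not called; 36.7% of tested genes were called higher and 38.2% lower. After NaCl 34 were called higher, 3 lower and 61 not, against 34.6% higher and 36.1% lower over tested genes. With passage as a block in the fit, 58 were called higher and 4 lower after raffinose (38.8% and 40.8% of tested genes), and 39 higher and 9 lower after NaCl (37.3% and 39.2%). The name "raised by urea alone" therefore goes against part of the data: it describes ratios on library totals, and under TMM scaling 19 of the 98 genes had a fold change over 1.5 after NaCl or raffinose, 17 of them after raffinose. These calls depend on the scaling: with library totals in place of TMM factors, 24 were called higher and 16 lower after raffinose (26% and 51.8% of tested genes), and 19 higher and 14 lower after NaCl (25.3% and 48.1%). That change moved the median log2 fold change of all tested genes from -0.02 to -0.25 for raffinose and from -0.02 to -0.19 for NaCl.

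Taken by both solutes under TMM scaling, 30 genes were called higher after NaCl and after raffinose (30.6%, against 32% of tested genes), 19 higher after raffinose and not called after NaCl (19.4% against 4.68%), and 4 the reverse (4.08% against 2.54%). Neither call was made for 41 (41.8% against 19.7%), and 4 were called lower after at least 1 of them (4.08% against 41.1%). The window shapes these shares. The 30 had median ratios of 1.22 for NaCl and 1.25 for raffinose, beside 2.09 for urea. The 41 had 0.904, 0.922 and 2.12. The NaCl group of 4 was ENSCAFG00000006100, ENSCAFG00000015246, ENSCAFG00000032320 (chromosome 12) and ENSCAFG00000019983 (chromosome 9). The lower group was ENSCAFG00000004384 (chromosome 21), ENSCAFG00000017107 (chromosome 30), ENSCAFG00000011820 (chromosome 17), which was called lower after both, and ENSCAFG00000015323 (chromosome 20). ENSCAFG00000011820 averaged 59.4 ± 7.8 CPM in control, 44.6 ± 4.9 after NaCl, 42.98 ± 5.4 after raffinose and 118.6 ± 13.1 CPM after urea. ENSCAFG00000032320, ENSCAFG00000017107 and ENSCAFG00000011820 were named after their values were seen.

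**Figure D4:**
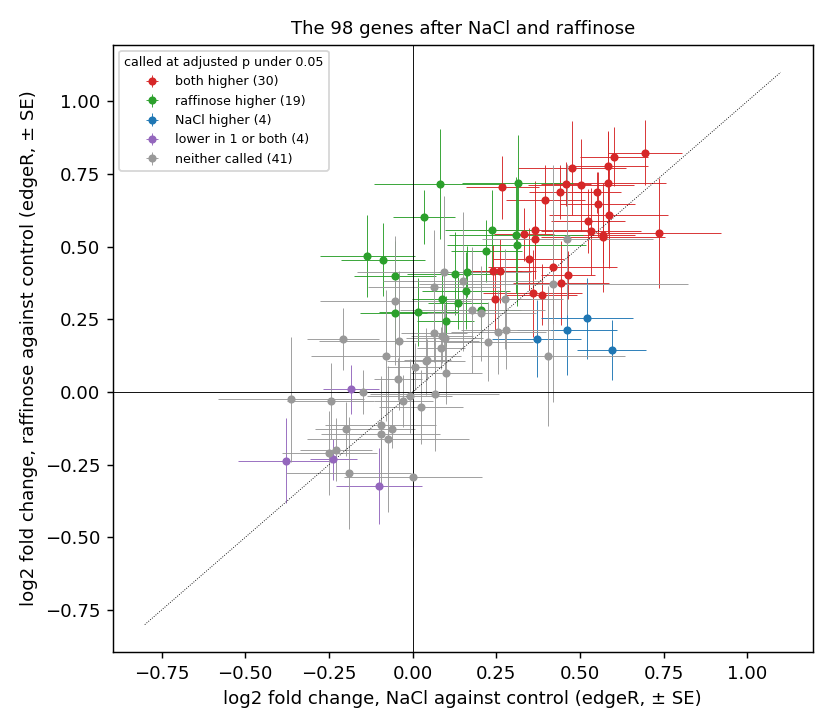
Each point is 1 of the 98 genes, with its edgeR log2 fold change against control for NaCl (horizontal) and raffinose (vertical), ± SE, under TMM scaling, and colour gives the call at adjusted p under 0.05. The 30 genes called higher after both solutes lie at the upper right, the 4 called lower after at least 1 solute to the left of the vertical zero line, and the dotted diagonal marks equal change; NaCl and raffinose share the control libraries.

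Between the solutes themselves, 1 gene was called higher after NaCl than after raffinose and 10 lower, where 7.42% and 7.97% of tested genes were. Comparing within passages, with passage as a block, gave 2 and 22, and 14.0% and 14.4% of tested genes. The gene called higher was ENSCAFG00000015246, and ENSCAFG00000019352 of the overlapping pair was among the 10. The rule had kept the means of these groups within 0.625 to 1.6 times each other.

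Passage was not used in choosing the genes. With group and passage number in 1 edgeR fit, 7 of the 98 genes rose with passage and 4 fell, or 11.2% in all, and 7.99% and 8.2% of tested genes did. The median absolute slope was 0.09 log2 units per 10 passages in the 98 genes and 0.09 in all tested genes. Among the 105 genes also raised by NaCl and raffinose, 24.0% of those tested were called for passage, among the 72 lowered by both, 23.9%, and among the other 43, 9.30%; the difference between these sets was not tested. The 4 libraries of a passage are not independent, and with their counts summed to 1 sample per passage edgeR called 0 of the 98, with 14 at an unadjusted p under 0.05, as 12.7% of tested genes were. Without passages 1 and 19, 6 of the 98 were called, all rising, and 6.79% of tested genes. Without passage 1 there were 7 calls, and 8.7% of tested genes. Without passage 16 there were 20, and 21.7% of tested genes.

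The largest slopes were falls, and both rested on passage 1. ENSCAFG00000001537 (chromosome 11, 35174242 to 35310335, minus strand, 36 exons) had its highest library at passage 1 in all 4 groups: 22.3 CPM in control, 18.5 after NaCl, 18.9 after raffinose and 47.03 CPM after urea. Its other libraries reached 12.7, 16.9, 13.8 and 29.4 CPM in the same order. The slope was -0.52 ± 0.10 per 10 passages (edgeR, adjusted p = 0.000265), and -0.22 without passage 1 (adjusted p = 0.192). These fits take the 4 libraries of a passage as independent. On counts summed by passage the slope was -0.55 (edgeR, adjusted p = 0.212).

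ENSCAFG00000004399 (chromosome 21, 12699774 to 12709686, plus strand, 3 exons) behaved likewise, and its passage 1 libraries held 19.4 CPM in control, 15.9 with NaCl, 19.6 with raffinose and 40.03 with urea. No other control, NaCl or raffinose library passed 11.3 CPM, and no other urea library 27.3. Its slope was -0.45 ± 0.10 (edgeR, adjusted p = 0.00225), and -0.06 without passage 1 (adjusted p = 0.781). On counts summed by passage it was -0.46 (edgeR, adjusted p = 0.294). For both genes the urea library stood above the control library of the same passage at all 12 passages.

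A change of the urea effect with passage was not detected in any of the 98 genes. The edgeR term for a difference in passage slope between urea and control gave 0 calls among them and 0.0% of the 12654 tested genes, and an unadjusted p under 0.05 in 3 of the 98 and 345 of all. With passage as a block it also gave 0 calls, with 11 of the 98 and 881 of all tested genes at an unadjusted p under 0.05. The median of the genes' log2 ratios to the control mean ran from 1.02 to 1.28 over the 12 urea libraries and from -0.11 to 0.11 over the control libraries.

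Within a group, the 98 genes varied little more together than other genes did. Over the 12 urea libraries, all pairs of tested genes had a mean correlation of 0.0016. Among the 98 genes it was 0.064, over 4753 pairs, as a description of libraries that differ in depth and passage. On library totals it was 0.0322 for the 98 genes. With each passage's effect in the other 3 groups removed it was 0.0134 for them. These alternatives were not computed over all tested genes. In control, NaCl and raffinose the mean correlation of the 98 genes was 0.0451, 0.0721 and 0.059. Over all tested genes it was 0.0004, 0.0003 and 0.0005 in the same order. The median coefficient of variation was 19.97% in control, 20.4% after NaCl, 22.5% after raffinose and 18.9% with urea. Over all tested genes it was lower in each group, at 15.7%, 16.1%, 18.7% and 16.8% in the same order. The median control level of tested genes was higher, 29.7 CPM against 12.47 for the 98.

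Among the 9 pairs of the 98 genes within 100 kb of each other, 3 pairs were made by neighbouring genes of chromosome 26, all on the plus strand and with no other tested gene between them: ENSCAFG00000023556 (10385074 to 10399082), ENSCAFG00000008929 (10404028 to 10422976) and ENSCAFG00000023107 (10431723 to 10451332). Their mean levels rose from 68.3 ± 16.5, 47.9 ± 7.7 and 2.70 ± 1.9 CPM in control to 171 ± 26.2, 86.6 ± 14.95 and 5.79 ± 2.8 CPM after urea (SD, n = 12). In each of the 4 groups, all 3 lay above their group median at passages 11 and 17 and below it at passage 4.

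The third gene showed this most. Its control libraries of passages 11, 17, 5 and 8 held 6.79, 5.43, 4.32 and 3.78 CPM, and the other 8 held at most 1.98. After urea the same passages gave 10.4, 9.56, 6.64 and 8.68 CPM, with 7.71 at passage 14 and at most 5.80 elsewhere. After NaCl it went from 0.411 at passage 10 to 10.2 at passage 17, which was above the urea library of that passage, 9.56. Its urea and control groups overlapped, and urea was above control at all 12 passages.

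**Figure D5:**
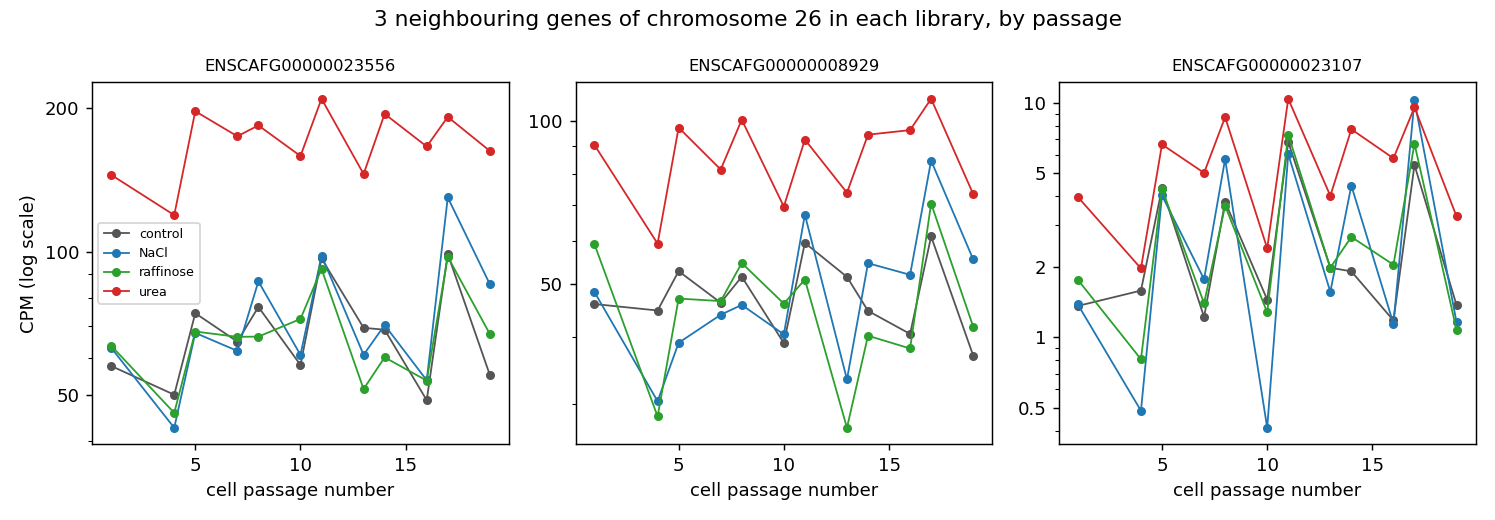
CPM on a log axis against cell passage number for the 3 neighbouring genes of chromosome 26, with 1 line for each group of 12 libraries. The lines of the 4 groups rise together at passages 11 and 17, and the urea line is the top one except at passage 17 in that gene.

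Over the 12 control libraries the first and second genes correlated with r = 0.89, rho = 0.85 (permutation test, two-sided, adjusted p = 0.0012 and 0.0062), the first and the third with r = 0.90, rho = 0.86 (adjusted p = 0.00072 and 0.0059), and the second and the third with r = 0.86, rho = 0.81 (adjusted p = 0.0009 and 0.0094). Over the urea libraries r was 0.77, 0.89 and 0.87 (permutation adjusted p = 0.011, 0.00096 and 0.0012), and rho was 0.55, 0.90 and 0.76 (adjusted p = 0.11, 0.0029 and 0.022). These p-values are adjusted over the 18 relations computed, 9 pairs of neighbouring genes in 2 groups. Without the 2 libraries farthest from the median, r stayed between 0.76 and 0.85 in control and between 0.65 and 0.81 after urea. With the passage effects of the other groups removed, r was 0.84, 0.22 and 0.56 in control and 0.81, 0.75 and 0.55 after urea.

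In all, 15 of the 98 genes lay within 100 kb of another, in 9 pairs, of which 3 have overlapping spans. How often other sets of tested genes lie this close was not computed. On chromosome X, ENSCAFG00000017527 (74513303 to 74536455, plus strand) and ENSCAFG00000017529 (74536520 to 74616871, minus strand) lie on opposite strands with facing ends 64 bases apart. The first had the largest rise of the pair, from a control median of 55.3 CPM (highest library 61.0) to a urea median of 175.8 (lowest library 152.0), with 63.3 after NaCl and 64.2 after raffinose. The second had medians of 8.41, 11.1, 12.6 and 16.8 CPM in control, NaCl, raffinose and urea, and its urea libraries, from 13.8, overlapped with all other groups. Their correlation over the urea libraries was r = 0.75 and rho = 0.65 (permutation adjusted p = 0.014 and 0.049), 0.45 without the 2 farthest libraries, and -0.02 with the passage effects removed.

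On chromosome 20, ENSCAFG00000018991 (55038278 to 55077477) and ENSCAFG00000015323 (55078111 to 55202965), both on the plus strand, lie 633 bases apart. Their control medians were 80.3 and 3.81 CPM and their urea medians 169.5 and 7.37, while after NaCl they were 62.3 and 2.47 and after raffinose 68.6 and 2.54. The correlation over urea libraries did not pass the test (r = 0.50, rho = 0.49, permutation adjusted p = 0.12 and 0.15). The span of ENSCAFG00000018991 overlaps 2 annotated genes, 1 of them tested. That of ENSCAFG00000015323 overlaps 6, of which 4 were tested, so both counts are uncertain.

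A pair on chromosome 8 overlaps on opposite strands, ENSCAFG00000038945 (72534546 to 72555884) and ENSCAFG00000018401 (72536337 to 72550019). Their medians went from 6.51 to 14.9 and from 120.0 to 217.0 CPM between control and urea. Over the urea libraries r was 0.79 and rho 0.60 (permutation adjusted p = 0.01 and 0.069), and r was 0.44 without the 2 farthest libraries. On chromosome 26 the single-exon gene ENSCAFG00000029090 (38623267 to 38624739) lies inside the span of ENSCAFG00000029297 (38620269 to 38644312) on the other strand, and their medians went from 1.98 to 5.22 and from 22.1 to 44.5 CPM. Both were among the genes called higher after NaCl and after raffinose. Their means were 1.24 and 1.05 times control after NaCl, and 1.46 and 1.13 times control after raffinose. Over the urea libraries their correlation did not pass the test (r = 0.39, rho = 0.24, permutation adjusted p = 0.24 and 0.5). For both pairs the counts of the partners cannot be separated by strand.

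The remaining pair, on the minus strand of chromosome 5, has 10 tested genes between its members. ENSCAFG00000020627 (32192273 to 32192340) is a single annotated exon of 68 bases that overlaps a gene of the opposite strand, with medians of 1.47 CPM in control and 3.47 after urea. It was also among the genes called higher after NaCl and after raffinose, with means 1.33 and 1.41 times control. ENSCAFG00000016148 (32276414 to 32282932) had medians of 52.6 and 91.4 CPM. Over the urea libraries the pair correlated with r = 0.54 and rho = 0.70 (permutation adjusted p = 0.021 and 0.038). With the passage effects removed r was 0.13, and over the control libraries it was -0.03. The low count of the first makes it among the least certain of the 98: its lowest urea library, passage 8, held 1.28 CPM.

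The genes were spread over 29 chromosomes, with 9 each on chromosomes 5 and 9, which hold 650 and 770 tested genes. Of 407 tested genes that lie within 100 kb of 1 of the 98 and are not among them, 30.2% were called higher after urea (27.4% of all tested genes were) and 24.6% lower, with a median log2 fold change of 0.03. Of the 98 genes, 9 have a single exon (9.18%, against 6.89% of tested genes), and 33 have a span that overlaps another annotated gene. The share of tested genes with such an overlap was not computed, so nothing is read from the 33. The median exon length was 2815 bases, and 2293 over tested genes.

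At most of its edges the window cuts through closely spaced values. The lowest ratios of urea to control inside were 1.81 for ENSCAFG00000008929 and 1.81 for ENSCAFG00000011263, and the nearest genes outside had 1.79 and 1.78. For NaCl the highest ratio inside was 1.47 and the nearest outside 1.51, and for raffinose 1.499 and 1.52. At the lower bound the values were 0.691 inside and 0.659 outside for NaCl, and 0.677 and 0.658 for raffinose. For NaCl against raffinose they were 0.685 and 0.608 at the lower bound, and at the upper bound the highest inside was 1.42, with no gene outside that met the other conditions. The lowest urea mean inside was 2.01 CPM and the nearest outside 1.94. If the added 0.1 CPM counted toward the minimum of 2 CPM, 101 genes would have been taken.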

How the data were processed

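RNA was measured in 48 libraries, 12 for each of 4 groups. The authors deposited 1 table of raw read counts per gene; per the submitters' processing notes CASAVA, HISAT2 2.0.5 and featureCounts 1.5.1 made it. Per the file headers, exon reads were summed by gene without strand on Ensembl release 87 of CanFam3.1. Overlapping, antisense and near-identical genes are therefore uncertain. The table had 0 blank or summary rows and 0 unused columns. The columns of passage 10 have an extra suffix of unknown meaning and were matched to the passage 10 samples by group.

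CPM is the count divided by the library total. Tests used edgeR 4.0.16 under R 4.3.3 on the counts (filterByExpr, TMM factors, glmQLFit and glmQLFTest over all 48 libraries with a term for group, Benjamini-Hochberg over 12654 genes, threshold 0.05), and separately with passage number, per 10 passages, as a linear term. The SE printed for a log2 fold change or slope is its absolute value divided by the square root of the quasi-likelihood F. Correlations used log2(CPM + 0.5) on TMM-scaled totals, with permutation tests in scipy 1.17.1. The fits were tested on simulated data in which each library was drawn independently, with no effect shared by the libraries of a passage. That test therefore cannot tell how the fits behave where libraries of a passage vary together.

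The 98 genes and the lists were chosen with earlier results of these data known. None of the identifiers (0 of 32704) paired with a symbol in the RefSeq gene table of assembly UU_Cfam_GSD_1.0, so prepared lists of pathways and kidney cell markers were not applied and sequences were not used here. Named were the 6 genes of highest ratio, the 4 most abundant, the 2 with the largest slope among those called for passage (none was called for the urea by passage term), genes within 100 kb of another of the 98, and those nearest each limit of the rule.

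A count of 0 allows up to 3 reads, which covers counting error only. No 2 libraries of a group were alike within sampling noise (lowest chi-square per gene 5.26 over 264 pairs). Passage numbers pair the samples by the labels: deviations of same-passage libraries of different groups correlated with a mean r of 0.328 (-0.117 to 0.728, 72 pairs), and those of different passages with -0.03.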

Additional observations from a re-analysis of the deposited data

How the results depend on the processing

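Alternatives were other scalings (RLE factors, library totals), other filters, DESeq2, a fit of the 2 groups compared alone, a passage block, leaving out each passage, and, chosen after seeing the data, leaving out the shallowest library, urea passage 8. For 25 named genes (those of highest ratio, abundance or passage slope, and the neighbouring pairs), 493 such values were computed. In all 493 the urea change kept its direction and its side of the threshold. The rule chose these genes by that change in the same libraries, so this describes the selection and tests nothing. Of 173 other values, 165 stayed within 1.5 times or 1 SD of the main value, and some of these were also fixed by the rule. The passage calls, 11 of 98, went to 0 on counts summed by passage, 6 without passages 1 and 19, and 7 to 20 with 1 passage left out. The median log2 fold change for urea, 1.16, was 1.08 on library totals and 1.09 with a mean of at least 5 CPM, where 69 of the 98 genes were tested. The mean correlation over urea libraries, 0.064, was 0.0322 on library totals and 0.0134 with the passages as a replicate block; the cause was not tested.

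The paired fit, with passage as a block, again called 98 genes higher after urea than control, and 4049 of 12654 tested genes. The selection fixed that direction. This fit called 48 of the 98 after NaCl, where 37.3% of tested genes were higher and 39.2% lower. After raffinose it called 62, where 38.8% of tested genes were higher and 40.8% lower. Its median log2 fold change for urea was 1.16. The counts it moved by over 1.5 times, lower after NaCl, lower after raffinose and NaCl against raffinose, are given above. It moved no other count of calls at adjusted p under 0.05 that far. For urea by passage it moved the genes at unadjusted p under 0.05 from 3 to 11, as printed above. With 1 passage left out, the genes called lower ran from 2 (passages 5, 7, 8 or 11) to 5 (passage 14) after NaCl. After raffinose they ran from 1 (passage 4 or 10) to 2. Of the 12640 to 12669 genes tested in these fits, 4420 to 4538 were called lower after NaCl and 4714 to 4838 after raffinose. The rule itself, applied to TMM-scaled CPM, took 115 genes, 79 of them among the 98; on medians it took 98, sharing 82; with an offset of 0.5 CPM, 99, sharing 92. Leaving out 1 passage gave 94 to 104 genes, sharing 90 to 97. Without urea passage 8 it gave 99, sharing 95. Genes at 2 CPM had few reads per library, so members of low level are the least certain.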
